A study of Homo sapiens with 2 samples.

Results

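The HOX cluster genes were examined in the NeuroD1 peak list of IMR-32, a cell line from a neuroblastoma in which MYCN is amplified. The genes were taken as all protein-coding RefSeq genes of GRCh38.p14 whose symbol starts with HOXA, HOXB, HOXC or HOXD followed by a number, which gave 40 of 20037 protein-coding genes. HOXA held 12 of them on chromosome 7, including the read-through gene HOXA10-HOXA9. HOXB held 10 on chromosome 17, HOXC held 9 on chromosome 12, and HOXD held 9 on chromosome 2. A gene was counted as having a peak when a peak lay in the gene or up to 3 kb from either end.

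The series holds 1 ChIP library of wild-type IMR-32 cells, made with an antibody labelled as NeuroD1, and 1 input library of the same cells, made without antibody. The input library was not analysed here. In ChIP-seq, sheared chromatin bound by a protein is enriched with an antibody before sequencing, and a peak is a site where reads pile up above the local background. The supplementary ChIP-seq methods name an H3K27Ac antibody, whereas the sample labels name NeuroD1, and the list was used as labelled. The labelled NeuroD1 antibody and an H3K27Ac antibody both stand in the study's antibody list, and the study profiled H3K27Ac in these cells separately, by CUT&Tag. With 1 ChIP library there was no replicate, so no test between groups was possible, and all intervals cover counting error only. IMR-32 is 1 cell line, so the values describe this line.

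HOX genes encode homeodomain transcription factors that give body segments their identity along the head-to-tail axis. In mammals they lie in 4 clusters, in which the order of the genes follows the order of their expression along that axis. Genes of the same number in different clusters are paralogs. Groups 1 to 3 are called anterior here, groups 4 to 8 central and groups 9 to 13 posterior. In many cells in which HOX genes are silent, the clusters are covered by Polycomb repressors. NeuroD1 is a basic helix-loop-helix factor of neuronal differentiation. It binds E-boxes, which have the form CANNTG, and it prefers the forms CAGATG, read on either strand, and CAGCTG.

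A single peak of the list lay at a HOX gene, in HOXC, and it lay within the gene spans of HOXC4, HOXC5 and HOXC6. The paralogs of these genes mark trunk and cervical levels, and HOXC4, HOXC5 and HOXC6 are known to share an upstream non-coding exon. RefSeq gave the same first base, 54016888 on chromosome 12, to all of them. The promoter just before that shared start is printed because it is the HOX promoter nearest to a peak. It is the same window for HOXC4 and HOXC5, and it lies on the forward strand at chr12:54016638-54016887. The sequence is from RefSeq of GRCh38.p14, and the capitals mark every CANNTG:
HOXC4 and HOXC5, 250 bases before the start: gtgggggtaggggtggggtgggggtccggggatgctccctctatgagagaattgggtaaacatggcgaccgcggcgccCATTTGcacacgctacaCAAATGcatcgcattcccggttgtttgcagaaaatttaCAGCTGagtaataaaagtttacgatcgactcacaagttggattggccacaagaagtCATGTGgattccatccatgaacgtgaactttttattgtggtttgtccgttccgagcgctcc
These 250 bases held 4 E-boxes, of which CAGCTG, at 117 bases before the start, is of a form that NeuroD1 prefers. The called peak did not reach this window. It began 1058 bp after the start.

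The peak lay at chr12:54017946-54018251 (hg38, positions counted from 1), with a width of 306 bp and its summit at 54018071. It was enriched 8.66-fold, where the fold is the pileup at the summit plus 1 divided by the local background plus 1. The peak caller gave it a −log10 p of 17.2 and a −log10 q of 12.95. The pileup came from 22 reads, with an exact Poisson interval (95%) of 13.8 to 33.3, and the implied local background was 1.61. With that background held fixed, the interval of the reads corresponds to a fold enrichment from 5.57 to 12.9.

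By fold enrichment the peak ranked 1602 of 6183, above 74.0% of the list. It ranked 1502 by −log10 q, 1387 by reads and 1366 by width, and so stood near the upper quartile of the list by all 4 measures. The counting error of a single library is wide beside these ranks. At the ends of the interval of the fold enrichment the peak would rank 4878 or 398. For comparison, the whole list had a median fold enrichment of 6.79 (range 1.58 to 70.0), an upper quartile of 8.68, a median of 17 reads and a median width of 220 bp. On chromosome 12, which held 481 peaks with a median fold enrichment of 6.75, the peak ranked 113. Its background of 1.61 equalled the median background of the peaks of that chromosome and was above that of 64.2% of all peaks.

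Within the genes, the summit lay 1183 bp after the shared first base. It lay 37959 bp before the end of HOXC4 (39143 bp long), 17290 bp before the end of HOXC5 (18474 bp) and 12752 bp before the end of HOXC6 (13936 bp). The peak was thus close to the shared first base of the gene spans, at 3.02%, 6.404% and 8.49% of their lengths. Any further start inside these genes was not considered in these positions. Whether the site is exonic or intronic was not determined, since the gene table used here gives no exons. The 3 genes were counted from 1 shared site and are not 3 independent observations. The non-coding RNA gene LOC124902939 overlapped the shared start and ended 199 bp before the peak. Within HOXC, which runs from HOXC13 at its lowest coordinate to the end of HOXC4 (chr12:53938831-54056030, 117.2 kb), the summit lay 79.2 kb from the first base and 37.96 kb from the last.

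The other 6 genes of HOXC had no peak, and their distances to this peak followed from their order in the cluster. HOXC8, the next gene, lay 5177 bp from it and was the only further HOX gene within 10 kb. HOXC9 lay 14.6 kb away, HOXC10 27.7 kb, HOXC11 40.3 kb, HOXC12 59.0 kb and HOXC13 71.4 kb. All 5 of these genes are posterior members, and none of them had a peak nearer than the one in HOXC4, HOXC5 and HOXC6. Of the non-coding genes of the cluster, the microRNA gene MIR615, which lies within HOXC5, was 15.7 kb away and MIR196A2 26.1 kb. HOTAIR, a long non-coding RNA gene that overlaps HOXC11 and extends from it towards HOXC12, was 43.0 kb away. These last 3 genes were chosen for naming after their values were seen.

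**Figure D1:**
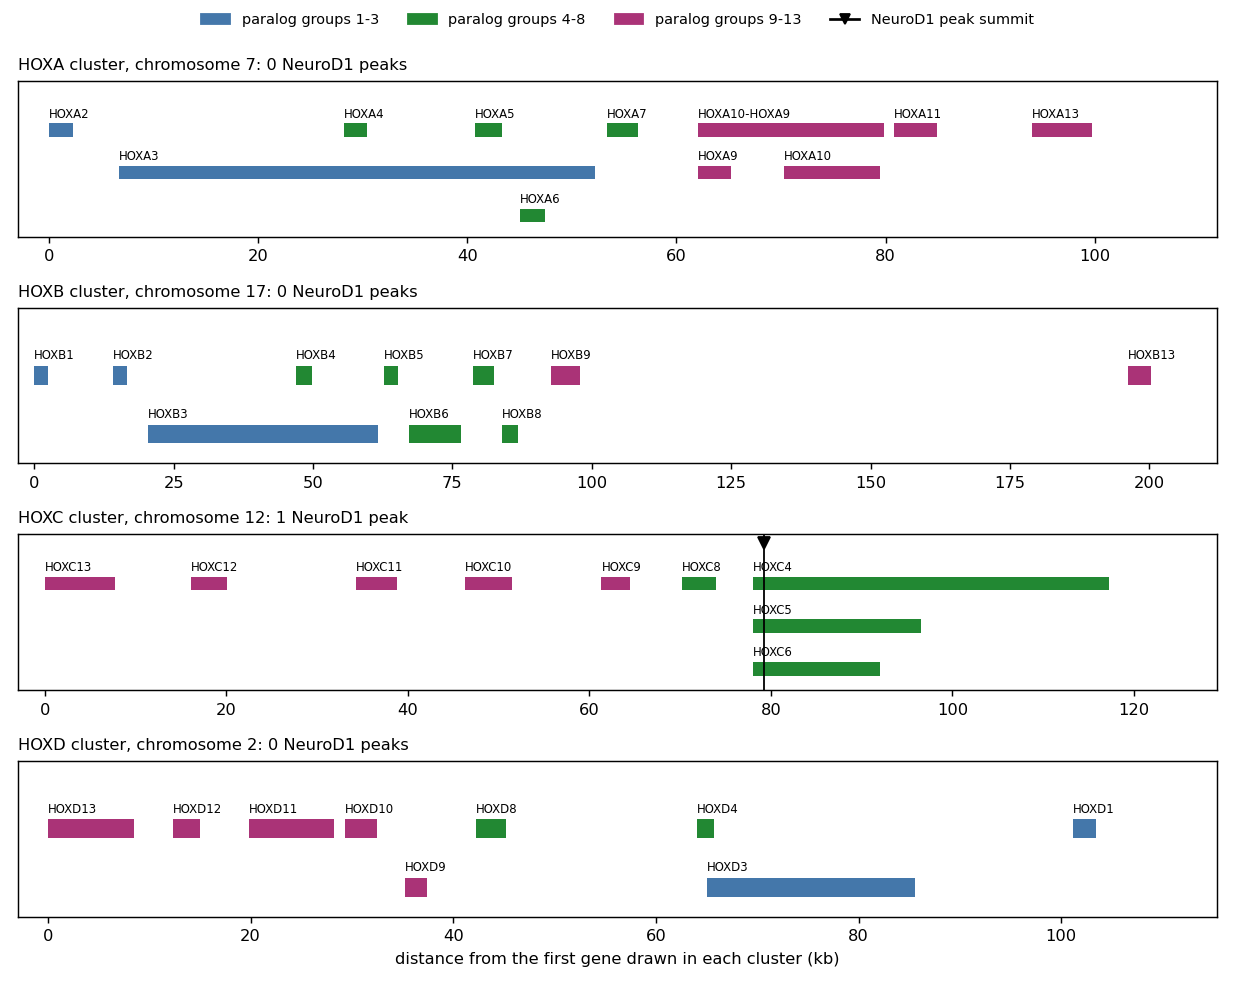
The 4 HOX clusters drawn to scale, each from the first gene drawn, with 1 HOXA gene left out, gene bodies coloured by paralog group, and the summits of NeuroD1 peaks marked by a vertical line. The only summit stands near the shared start of HOXC4, HOXC5 and HOXC6, 79.2 kb from the first base of HOXC, and the other clusters have none.

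The peak list held no peak at HOXA, HOXB or HOXD. In HOXA, on chromosome 7, 0 of 12 genes had a peak, which allows a share of up to 25%. The shortest distance to a peak was 386.7 kb, for HOXA13, and the median over the cluster was 432.2 kb. The nearest peaks on the sides of the cluster lay at chr7:26202003-26202173, in CBX3, and at chr7:27586840-27587084, in HIBADH. The former had a fold enrichment of 7.05 and 15 reads, and the latter 7.58 and 18 reads. CBX3 encodes a heterochromatin protein of the HP1 family and HIBADH a mitochondrial enzyme of valine breakdown. The stretch free of peaks between these sites was 1384.67 kb long. In the whole list, 53.6% of the length between neighbouring peaks lay in stretches at least as long.

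In HOXB (chr17:48528526-48728750, 200.2 kb), 0 of 10 genes had a peak, which allows a share of up to 30%. The distance went from 163.8 kb for HOXB13 to 361.5 kb for HOXB1, with a median of 293.2 kb. PRAC1 and PRAC2, the non-HOX protein-coding genes between HOXB9 and HOXB13, had no peak within 3 kb. The nearest peaks outside lay at chr17:48126087-48126332, which was 2486 bp from SNX11, and at chr17:48892556-48892828, in ATP5MC1. The former had a fold enrichment of 7.35 and 24 reads, and the latter 8.34 and 33 reads. SNX11 encodes a sorting nexin and ATP5MC1 a subunit of the mitochondrial ATP synthase. The stretch free of peaks was 766.2 kb long, and 70.03% of the length between peaks lay in stretches at least as long.

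HOXD (chr2:176087487-176190907, 103.4 kb) lay farthest from any peak. None of its 9 genes had a peak, which allows a share of up to 33.3%. The distance went from 919.0 kb for HOXD13 to 1020.2 kb for HOXD1, with a median of 954.3 kb. The nearest peaks lay at chr2:175168269-175168450, which was 66 bp from ATF2, and at chr2:177212593-177212738, which was 56 bp from HNRNPA3. The former had a fold enrichment of 5.79 and 11 reads, and the latter 6.75 and 13 reads. ATF2 encodes a bZIP transcription factor and HNRNPA3 an RNA-binding protein. The stretch free of peaks was 2044.1 kb long, and 40.8% of the length between peaks lay in stretches at least as long. All flanking genes from CBX3 to HNRNPA3 were chosen for naming after their values were seen, since no peak lay within 50 kb outside any cluster.

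**Figure D2:**
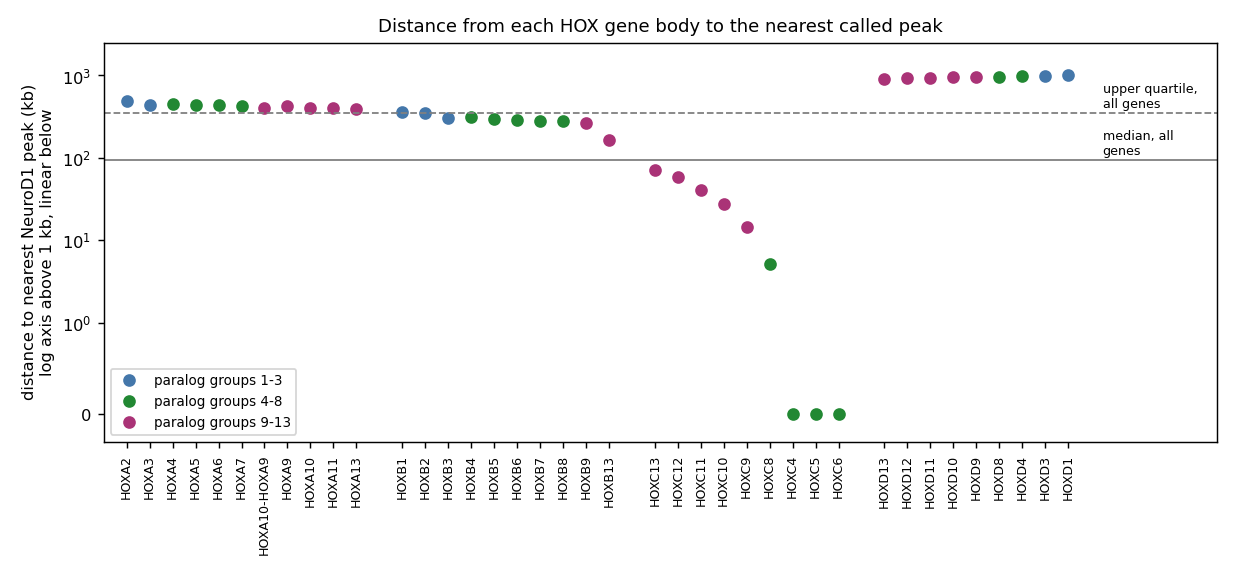
Distance in kb from each HOX gene body to the nearest called peak, on an axis that is logarithmic above 1 kb and linear below, with genes in chromosomal order within each cluster and 1 HOXA gene left out. HOXC4, HOXC5 and HOXC6 stand at 0, all 9 HOXC genes lie under the median of all protein-coding genes (94.9 kb, solid line), and all genes drawn of HOXA and HOXD lie above the upper quartile (351.9 kb, dashed line).

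Over all 40 genes the median distance to the nearest peak was 394.2 kb, against 94.9 kb over all protein-coding genes on chromosomes with a peak (n = 19974). Of the HOX genes, 31 lay beyond that median and 22 lay beyond the upper quartile of 351.9 kb. The 9 genes within 100 kb were those of HOXC. Neighbouring genes share their nearest peak, so these are values of 4 regions rather than of 40 separate genes.

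By position in the cluster, the genes with a peak were all central. Of the central genes 3 of 15 did, which is 20% (4.33 to 48.1%, exact 95% interval by Clopper-Pearson). Of the anterior genes it was 0 of 8, which allows a share of up to 37.5%. Of the posterior genes it was 0 of 17, which allows up to 17.6%. The intervals overlap, and the central count rests on the 1 shared site in HOXC.

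Over all HOX genes, a peak was found for 3 of 40, or 7.5% (1.57 to 20.4%, same interval). By the same rule, 21.4% of all protein-coding genes had one (4283 of 20037). HOX genes are short, with a median length of 3.79 kb. Of the 33 HOX genes of up to 10 kb, 0 had a peak, which allows a share of up to 9.09%, or up to 10.6% by the Clopper-Pearson interval. Among all protein-coding genes of up to 10 kb the share was 13.3% (758 of 5694). Of the 7 HOX genes over 10 kb, the 3 genes at the shared HOXC site had a peak, whereas HOXA3, HOXA10-HOXA9, HOXB3 and HOXD3 had none. Among all measured protein-coding genes over 10 kb the share was 24.6%. Non-coding genes within the cluster spans, among them microRNAs and antisense RNAs, had a peak in 1 of 37 cases (2.70%, 0.0684 to 14.2%), which was LOC124902939. Over all non-coding genes and pseudogenes the share was 4.65% (1842 of 39642). The HOX genes of a cluster are neighbours and not independent draws, so the intervals are too narrow as statements on genes.

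Counted by length and not by gene, the interval of the density in the clusters took in the density of the whole genome. With 3 kb on each side, the 4 cluster spans covered 551.95 kb and held 1 peak, or 0.181 per 100 kb (95% exact Poisson interval 0.00459 to 1.01). The density over all chromosomes was 0.213 per 100 kb, at which the same length would hold 1.18 peaks. The HOX genes with 3 kb on each side, merged where they overlap, held 0.242 peaks per 100 kb (0.00614 to 1.35), against 0.339 in all protein-coding genes treated likewise. For protein-coding genes of up to 10 kb with 3 kb on each side the density was 1.39 (1.29 to 1.49), and at that density the HOX length would hold 5.72 peaks. The interval of the HOX genes took in the density of all protein-coding genes and ended just below that of the short ones. The HOX length, however, also holds the 7 HOX genes over 10 kb, and 3 of these share the only peak. The comparison with short genes is thus between unlike sets, and no shortfall can be read from it. A HOX gene without a peak is one at which none was called at this depth. Among the 5175 peaks over a background of up to 2, the weakest had 8 reads, and the lowest fold enrichment was 3.93. Over higher backgrounds the list held peaks of lower fold enrichment, down to 1.58.

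The surroundings of the clusters differed. Within 1000 kb on each side, HOXA had 5 peaks, HOXB 30, HOXC 23 and HOXD 1, where the mean density over all chromosomes gives 4.48 to 4.68 for these lengths. The surroundings of HOXB and HOXC thus held more peaks than that mean, and those of HOXD held fewer. Within 200 kb on each side the counts were 0 for HOXA, 2 for HOXB, 1 for HOXC and 0 for HOXD. Within 500 kb they were 2, 10, 15 and 0. The fold enrichment of the peaks within 1000 kb went from 3.73 to 21.7 at HOXB and from 4.25 to 14.1 at HOXC, so the HOXC peak at 8.66 lay within the range of its neighbours.

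**Figure D3:**
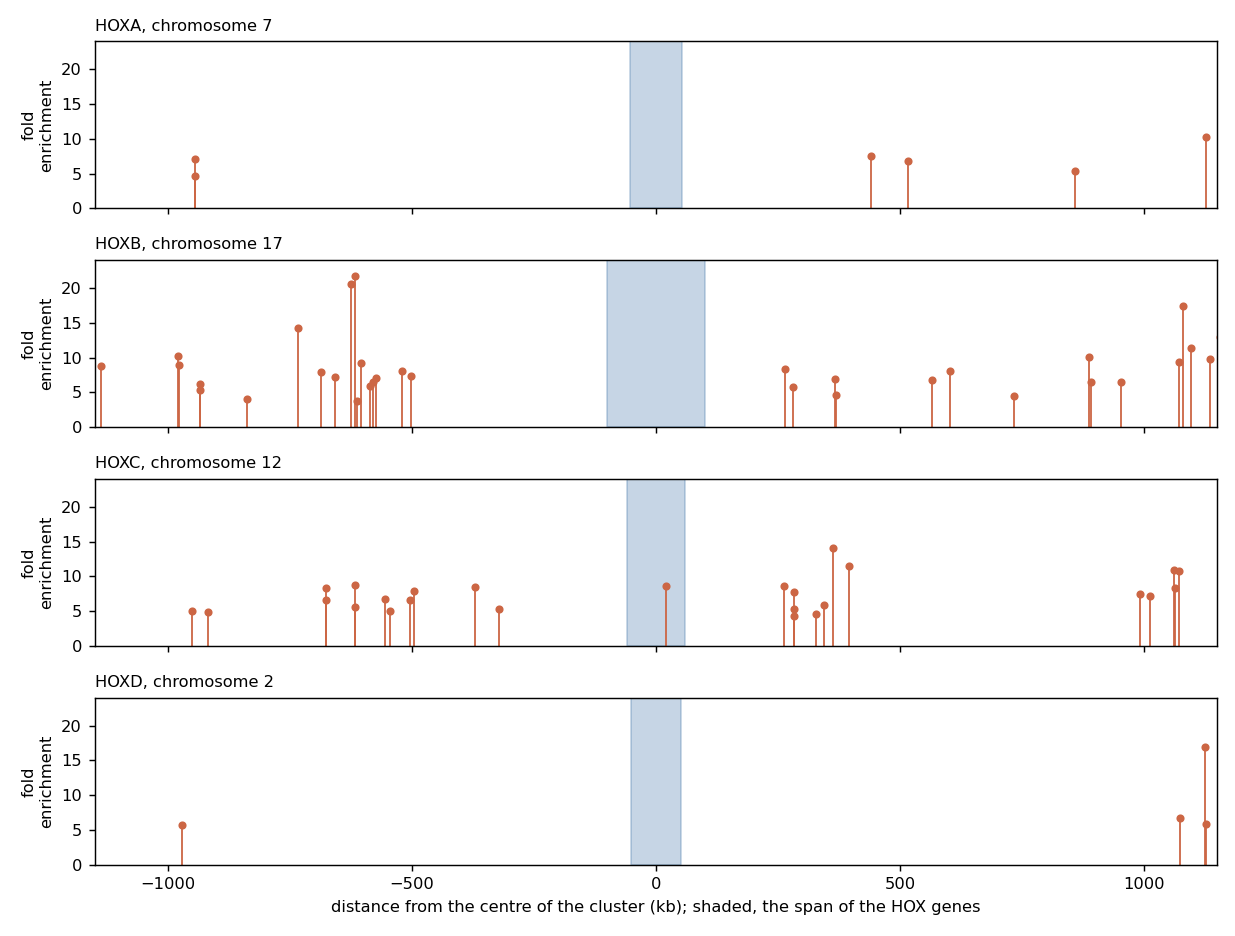
Fold enrichment of every called peak around each HOX cluster, against the distance in kb from the centre of the cluster, with the span of the HOX genes shaded. HOXB and HOXC have 30 and 23 peaks within 1000 kb of the cluster, HOXA 5 and HOXD 1, and only the shaded span of HOXC contains a peak.

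The matched promoters of the HOX genes, mostly of HOXA and HOXD, held E-boxes about as often as other promoters. RefSeq promoter windows, from 250 bases before to 50 bases after the start, were matched for 21 of 40 HOX genes, which gave 27 distinct windows (7 of them for HOXA3, and 1 for HOXC4 and HOXC5 together). Of these windows, 17 were of HOXA, 8 of HOXD, 1 of HOXB and 1 of HOXC, so HOXB and HOXC were hardly covered. None of the 27 was overlapped by a peak, which allows a share of up to 11.1%. Over all 34943 windows the share was 8.28%. CANNTG stood in 19 of the 27 HOX windows (70.4%), against 68.7% of all windows. A preferred form, on either strand, stood in 7 (25.9%), against 29.8% of all windows.

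The E-boxes of preferred form in single-window genes of HOXA, HOXB and HOXC are printed as the sites most like the NeuroD1 motif in windows without a called peak. Each is 30 bases long on the strand of the gene, with the E-box in capitals:
HOXA6, 107 bases before the start, chr7:27147876-27147881 for the E-box: ccgccgccgcgtCAGCTGgtgcgatttgct
HOXA6, 24 bases before the start, chr7:27147793-27147798: aatagttatagcCAGATGtactaatacaca
HOXA7, 193 bases before the start, chr7:27156863-27156868: gaggttggccgcCAGCTGggcgctcccgcg
HOXA11, 27 bases after the start, chr7:27185200-27185205: gcttcaaagaggCAGCTGcagtggagaatc
HOXB1, 181 bases before the start, chr17:48531187-48531192: ccatgtcgctctCAGATGgatgggctgcgg
HOXC4, 117 bases before the start, chr12:54016771-54016776: gcagaaaatttaCAGCTGagtaataaaagt
HOXA3 held the further ones, and none of the 8 HOXD windows held a preferred form. HOXA6, HOXA7, HOXA11 and HOXB1 had such an E-box and no peak within 200 kb. Over all windows, those under a peak held CANNTG less often than those not under a peak, at 56.7% against 69.8%, and the preferred forms at 25.1% against 30.2%. Windows under a peak had a median GC content of 68%, against 58.7% for all windows and 58% for the HOX windows. The part of base composition in these shares was not tested. The motifs were counted in the promoter window and not in the peak, so these shares do not describe the bases of the peaks. The bases of the HOXC peak itself were not searched, as no genome sequence was used here.

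Of 27 other homeobox genes, a list of factors related to HOX that includes the EVX, DLX, EMX, MSX and CDX families, 4 had a peak (14.8%, 4.19 to 33.7%). These were DLX6 and EMX1, of forebrain development, EMX2, and PHOX2A, of the autonomic nervous system. The peak at EMX2 had a fold enrichment of 10.1 and 20 reads, at EMX1 6.59 and 16 reads, at DLX6 5.79 and 11 reads, and at PHOX2A 4.17 and 16 reads. EVX1 and EVX2, the homeobox genes that lie beside HOXA and HOXD, had none. The interval of this share overlaps that of the HOX genes and takes in the 21.4% of all protein-coding genes.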

How the data were processed

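The data were 1 list of NeuroD1 peaks from IMR-32 cells. Per the labels, the authors used the build hg38, BWA 0.7.17 and MACS2 2.2.7, although the peak names carry the name of MACS3. The deposited fold enrichment is a ratio of pileup to background, the p-value and q-value of each summit were deposited as −log10, and the deposited score is derived from the −log10 q. A further deposited score is fold enrichment over width. The depth of the library is unknown. The weight of 1 read (0.9801) was inferred from the deposited values of 29 peaks, and reads and background were then solved with the Poisson formula of MACS, within 0.001 of the −log10 p for 99.5% of peaks. The solver was also run on 992 simulated peaks made with the same formula and weight, and it recovered the reads of 100% of them. The simulated peaks did not reach the highest read counts of the list. They cannot show whether the formula and weight hold for the deposited peaks.

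Genes and promoter sequences were from RefSeq (GRCh38.p14). Intervals are exact Clopper-Pearson or Poisson intervals at 95%, and the limit of a count of 0 is 3 counts of the total. That limit differs from the upper end of the Clopper-Pearson interval. No test was run. The values of 1 HOXA gene, which stays in the counts, and of some genes of the comparison lists are not reported here. Named were all HOX genes with a peak, the nearest and farthest in each cluster, non-coding genes within 3 kb of a peak and flanking genes with a peak within 50 kb of a cluster. The members and lists were chosen with earlier results of these data known. Alternatives were other distances, peaks limited to a fold enrichment or −log10 q of 5 or more, overlap by the summit alone, rank by −log10 q and preferred E-boxes. Scripts ran in Python 3.11.15 with scipy 1.17.1 for intervals, matplotlib 3.10.9 for plots, and pandas 2.3.3 and numpy 2.4.6 for tables.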

Additional observations from a re-analysis of the deposited data

How the results depend on the processing

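The 3 HOX genes with a peak were found at 0 kb and 1 kb around the genes, with a −log10 q or a fold enrichment of at least 5, and with the summit in place of the peak. At 10 kb HOXC8 was added, which gave 4. The share of all protein-coding genes moved from 16.0% at 0 kb to 25.1% at 10 kb. The HOX clusters held 1 peak under each of these settings and with 50 kb around them, and its rank was 1502 by −log10 q in place of 1602. With preferred E-boxes in place of CANNTG, the HOX windows with a motif fell from 19 to 7. Settings chosen after seeing the data were leaving out HOXA10-HOXA9, which again gave 3, and distances from RefSeq start sites. Within 3 kb of a start site there were 2 genes, HOXC4 and HOXC5, since HOXC6 had no matched start, and within 1 kb there were 0, as the peak began 1058 bp after the start. No paired analysis was possible because there was 1 ChIP library. A second library and the depth of this one would be needed to say how stable the HOXC peak is.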

Other observations

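The E-box CACGTG, the form preferred by Myc family factors such as N-Myc, stood in 9 of the 27 HOX promoter windows (33.3%), against 7.23% of all windows. This form was picked after the motif counts had been seen. It stood in 5 of the 8 HOXD windows (62.5%), in 4 of the 17 HOXA windows, and in neither of the single windows of HOXB and HOXC. The HOX genes of a cluster are neighbours, so these windows are not independent matches. N-Myc binding was not analysed here, and a match is a description of the sequence that does not name a factor bound there. The HOXD motifs are printed with 30 bases each on the strand of the gene, the E-box in capitals:
HOXD13, 131 bases before the start, chr2:176092590-176092595 for the E-box: cgttcctaccccCACGTGgccgcgcgcagc
HOXD11, 90 bases before the start, chr2:176107190-176107195: tcttcatggcgtCACGTGacataattacca
HOXD10, 106 bases before the start, chr2:176116672-176116677: caggctctggagCACGTGacccgagaggag
HOXD3, 47 bases before the start, chr2:176157260-176157265: acaagtcccgacCACGTGattggcgaaata
HOXD1, 53 bases before the start, chr2:176188615-176188620: gccggccagcgcCACGTGgccgcccccgcc
The HOXD promoters are those farthest from any called peak, at 919.0 to 1020.2 kb from the gene bodies.

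Beside the clusters, the values of some further genes are given. They were picked for naming after their values were seen, so no share is drawn from them. They belong to families with members on the chromosomes of several HOX clusters. Of the members listed there, a peak lay within 3 kb of 3 of 3 in the HNRNPA family. In the family of NFE2L2 it was 2 of 4, and in the Sp family 3 of 9, so other members had none. Over all protein-coding genes the share was 21.4%, and no comparison is drawn from families picked this way. Of the HNRNPA family of RNA-binding proteins, HNRNPA1, at 224.7 kb from HOXC, had a peak with a fold enrichment of 7.69 and 24 reads. HNRNPA2B1, at 892.2 kb from HOXA, lay 794 bp from a peak of 4.66 and 18 reads that also overlapped CBX3. HNRNPA3, at 1021.9 kb from HOXD, lay 56 bp from a peak of 6.75 and 13 reads. NFE2L2, a regulator of the response to oxidative stress at 1039.4 kb from HOXD, had a peak of 37 reads, enriched 16.96-fold, and its −log10 q was 35.7. SP2, a zinc finger factor of the Sp family at 596.8 kb from HOXB, had one of 51 reads, enriched 14.3-fold, and its −log10 q was 39.9, so the order of these peaks differs between the measures. EVX1, at 42.7 kb from HOXA, and EVX2, at 3.53 kb from HOXD, had no peak within 3 kb, and their nearest peaks lay 339.0 kb and 909.0 kb away.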
